A study of Mus musculus with 16 samples.

Results

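The chromatin around 7 genes that act upstream in the muscle lineage was examined: Pax3, Pax7, Six4, Eya1, Pitx3, Meis1 and Runx1. The genes were chosen by name for their place in the lineage, with earlier results of these data known, and each was given a window made of its gene body in GENCODE M21 (mouse build mm10) plus 50 kb on either side. They are 7 of 21755 protein-coding genes on the autosomes and X. Their windows held 121 of the 80290 accessible regions that the 14 compared libraries gave together, and 42 of 26213 in equal-length lists, which keep from each library only as many of its most significant peaks (by −log10 p) as the shortest kept list holds.

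The assay was ATAC-seq, which marks open DNA with sequencing adapters that a transposase inserts, and the cells were C2C12 iMyoD1. C2C12 is a mouse myoblast line. This derivative keeps its own Myod1 and carries in addition a doxycycline-inducible Halo-tagged MyoD1, and every group carries both. The 4 groups, each of 4 libraries labelled as biological replicates, were GM no dox (serum-rich growth medium and vehicle), GM +dox (growth medium with 24 h of doxycycline), DM no dox (24 h of serum withdrawal and vehicle) and DM +dox (24 h of serum withdrawal with 24 h of doxycycline). Dox and serum withdrawal started together. GM wells received 75000 cells and DM wells 300000, so medium and seeding density cannot be told apart. The transgene is driven by a dox-responsive promoter and the endogenous Myod1 is present in vehicle cells too, so +dox against no dox compares MyoD1 doses rather than MyoD1 with its absence, and no comparison has a control for dox itself.

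In both DM groups replicate 1 was left out, as the study's methods did for quality, so each DM group has 3 libraries and each GM group 4. The kept lists held up to 58587 peaks, at an estimated background of 0.339 to 1.13 fragments per base. Of 10 myoblast marker genes, 3 had a peak within 1 kb of a start site in all 14 libraries and 7 in some. Myod1 was among the 3, and the transgene carries Myod1 coding sequence too, so fragments there can come from either. Of 20 markers of blood, endothelial, epithelial, neural and adipocyte cells, 13 had no such peak in any library, Cebpa had one in all 14, Gfap in 10 and Pecam1 in 8.

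Pax3 and Pax7 are paired-box and homeodomain factors that mark muscle progenitors and satellite cells. Six4 is a homeodomain factor of the sine oculis class, and Eya1 is a co-activator that binds proteins of that class and also has phosphatase activity. Pitx3 is a homeodomain factor expressed as myoblasts differentiate, Meis1 is a TALE homeodomain cofactor that binds DNA with PBX partners, and Runx1 is a runt-domain factor that binds DNA with CBFB. MyoD1 binds the E-box, whose best known form is CAGCTG.

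The windows differed widely in what was open. All 7 genes lie on the minus strand. In GRCm38, the assembly behind mm10, Pax3 lies at chr1:78101267-78197134, Pax7 at chr4:139737062-139833528, Six4 at chr12:73099609-73113456, Eya1 at chr1:14168954-14310235, Pitx3 at chr19:46135685-46148326, Meis1 at chr11:18879817-19018985 and Runx1 at chr16:92601466-92826149. The Six4 window also holds other protein-coding genes, among them Mnat1, and the Pitx3 window holds Elovl3 and Gbf1, so a peak there may belong to a neighbour. The regions of each gene are numbered along the chromosome, from the 3′ side of the gene towards its 5′ side.

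The sequences below are read from the plus strand of GRCm38 (RefSeq), 100 bp either side of the summit of each named region. Capitals mark every CAGCTG and every TGANTCA, the core of the AP-1 motif. The first 4 are the region with the strongest average rank of Pax7, Six4, Meis1 and Runx1, and the first of these, Pax7 region 7, lies at chr4:139716541-139716741. Six4 region 9 lies at chr12:73147330-73147530, Meis1 region 11 at chr11:18953959-18954159 and Runx1 region 10 at chr16:92620807-92621007.
Pax7 region 7: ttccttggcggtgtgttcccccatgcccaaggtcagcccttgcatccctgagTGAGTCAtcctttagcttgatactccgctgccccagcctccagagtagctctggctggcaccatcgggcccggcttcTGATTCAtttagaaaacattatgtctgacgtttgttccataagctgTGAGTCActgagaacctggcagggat
Six4 region 9: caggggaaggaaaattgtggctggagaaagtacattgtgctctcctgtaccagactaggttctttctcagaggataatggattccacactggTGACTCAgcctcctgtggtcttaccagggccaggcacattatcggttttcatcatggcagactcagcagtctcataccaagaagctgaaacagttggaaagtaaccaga
Meis1 region 11: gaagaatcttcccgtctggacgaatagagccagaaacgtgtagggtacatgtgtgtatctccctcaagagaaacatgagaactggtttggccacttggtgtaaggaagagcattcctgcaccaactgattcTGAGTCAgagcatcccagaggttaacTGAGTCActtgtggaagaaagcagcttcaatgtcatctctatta
Runx1 region 10: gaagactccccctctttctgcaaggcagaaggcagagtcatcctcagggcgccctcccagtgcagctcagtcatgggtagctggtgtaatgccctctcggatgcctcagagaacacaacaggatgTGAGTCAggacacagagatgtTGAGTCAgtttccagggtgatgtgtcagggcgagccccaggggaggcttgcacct
Pax7 region 7 has 3 copies of TGANTCA, Meis1 region 11 and Runx1 region 10 have 2 each and Six4 region 9 has 1, and none of the 4 holds CAGCTG. The regions of highest rank of the other 3 genes, Pax3 region 5, Eya1 region 10 and Pitx3 region 7, hold 0 copies of TGANTCA.

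The next set are some of the regions that were present in whole groups and absent from others, together with the region most often found near Pax3. Pax3 region 5 lies at chr1:78215822-78216022, Pitx3 region 6 at chr19:46148461-46148661, Runx1 region 9 at chr16:92611855-92612055 and Runx1 region 33 at chr16:92780067-92780267.
Pax3 region 5: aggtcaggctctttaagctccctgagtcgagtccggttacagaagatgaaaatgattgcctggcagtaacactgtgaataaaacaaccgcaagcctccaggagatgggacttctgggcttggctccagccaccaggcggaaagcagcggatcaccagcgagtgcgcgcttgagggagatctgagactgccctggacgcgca
Pitx3 region 6: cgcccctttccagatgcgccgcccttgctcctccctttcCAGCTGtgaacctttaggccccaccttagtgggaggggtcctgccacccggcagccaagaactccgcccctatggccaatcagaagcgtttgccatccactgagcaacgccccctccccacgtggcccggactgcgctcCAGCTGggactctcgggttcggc
Runx1 region 9: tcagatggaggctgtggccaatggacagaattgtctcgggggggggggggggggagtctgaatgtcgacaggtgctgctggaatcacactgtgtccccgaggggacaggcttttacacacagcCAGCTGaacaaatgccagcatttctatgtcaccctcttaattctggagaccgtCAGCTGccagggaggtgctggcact
Runx1 region 33: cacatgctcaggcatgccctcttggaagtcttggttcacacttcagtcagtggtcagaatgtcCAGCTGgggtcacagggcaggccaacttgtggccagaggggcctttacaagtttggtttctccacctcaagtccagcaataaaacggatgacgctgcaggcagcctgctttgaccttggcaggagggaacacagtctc
Pitx3 region 6 and Runx1 region 9 hold 2 CAGCTG each, Runx1 region 33 holds 1, and Pax3 region 5 holds neither motif. Of all 7 regions present in whole groups and absent from others in the full lists, 4 hold CAGCTG near their summit (57.1%). Over all regions of the full lists 19.8% hold it, and 1 of the 18 member regions found in all 14 libraries does. The share among regions of this kind over the whole series was not computed, and no difference was tested. Pax7 region 1, Pitx3 region 4 and Runx1 region 35, not printed here, hold 0.

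The last pair are intronic Meis1 regions. Meis1 region 3 at chr11:18905428-18905628 left the equal-length lists with dox in DM. Meis1 region 10 at chr11:18948958-18949158 had the lowest p of the members' tested regions in differentiation without dox.
Meis1 region 3: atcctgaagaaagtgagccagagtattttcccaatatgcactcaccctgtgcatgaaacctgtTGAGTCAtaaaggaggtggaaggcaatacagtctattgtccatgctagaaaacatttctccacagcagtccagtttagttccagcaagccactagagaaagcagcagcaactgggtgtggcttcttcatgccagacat
Meis1 region 10: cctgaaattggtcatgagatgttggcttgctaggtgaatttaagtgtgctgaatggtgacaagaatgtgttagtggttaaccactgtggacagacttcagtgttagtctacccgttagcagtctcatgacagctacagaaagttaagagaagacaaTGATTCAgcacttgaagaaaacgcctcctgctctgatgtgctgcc
Both hold 1 TGANTCA and no CAGCTG.

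Runx1 had by far the most regions of the 7 genes, 43, followed by Pax7 with 21, Meis1 with 18, Eya1 and Pitx3 with 11 each, Six4 with 10 and Pax3 with 7. Of the 121 regions, 74 had their summit in an intron, 39 between genes, 5 in a UTR, 2 in a coding exon and 1 in another exon, and 10 lay within 1 kb of a start site of their gene. A peak was present in all 14 libraries for 18 regions (14.9%) and in a single library for 24 (19.8%). Over all regions of the series the same shares were 13.8% and 23.5%. The 18 shared regions were 8 of Runx1, 4 of Six4, 3 of Meis1 and 1 each of Pax7, Eya1 and Pitx3, with none of Pax3.

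**Figure D1:**
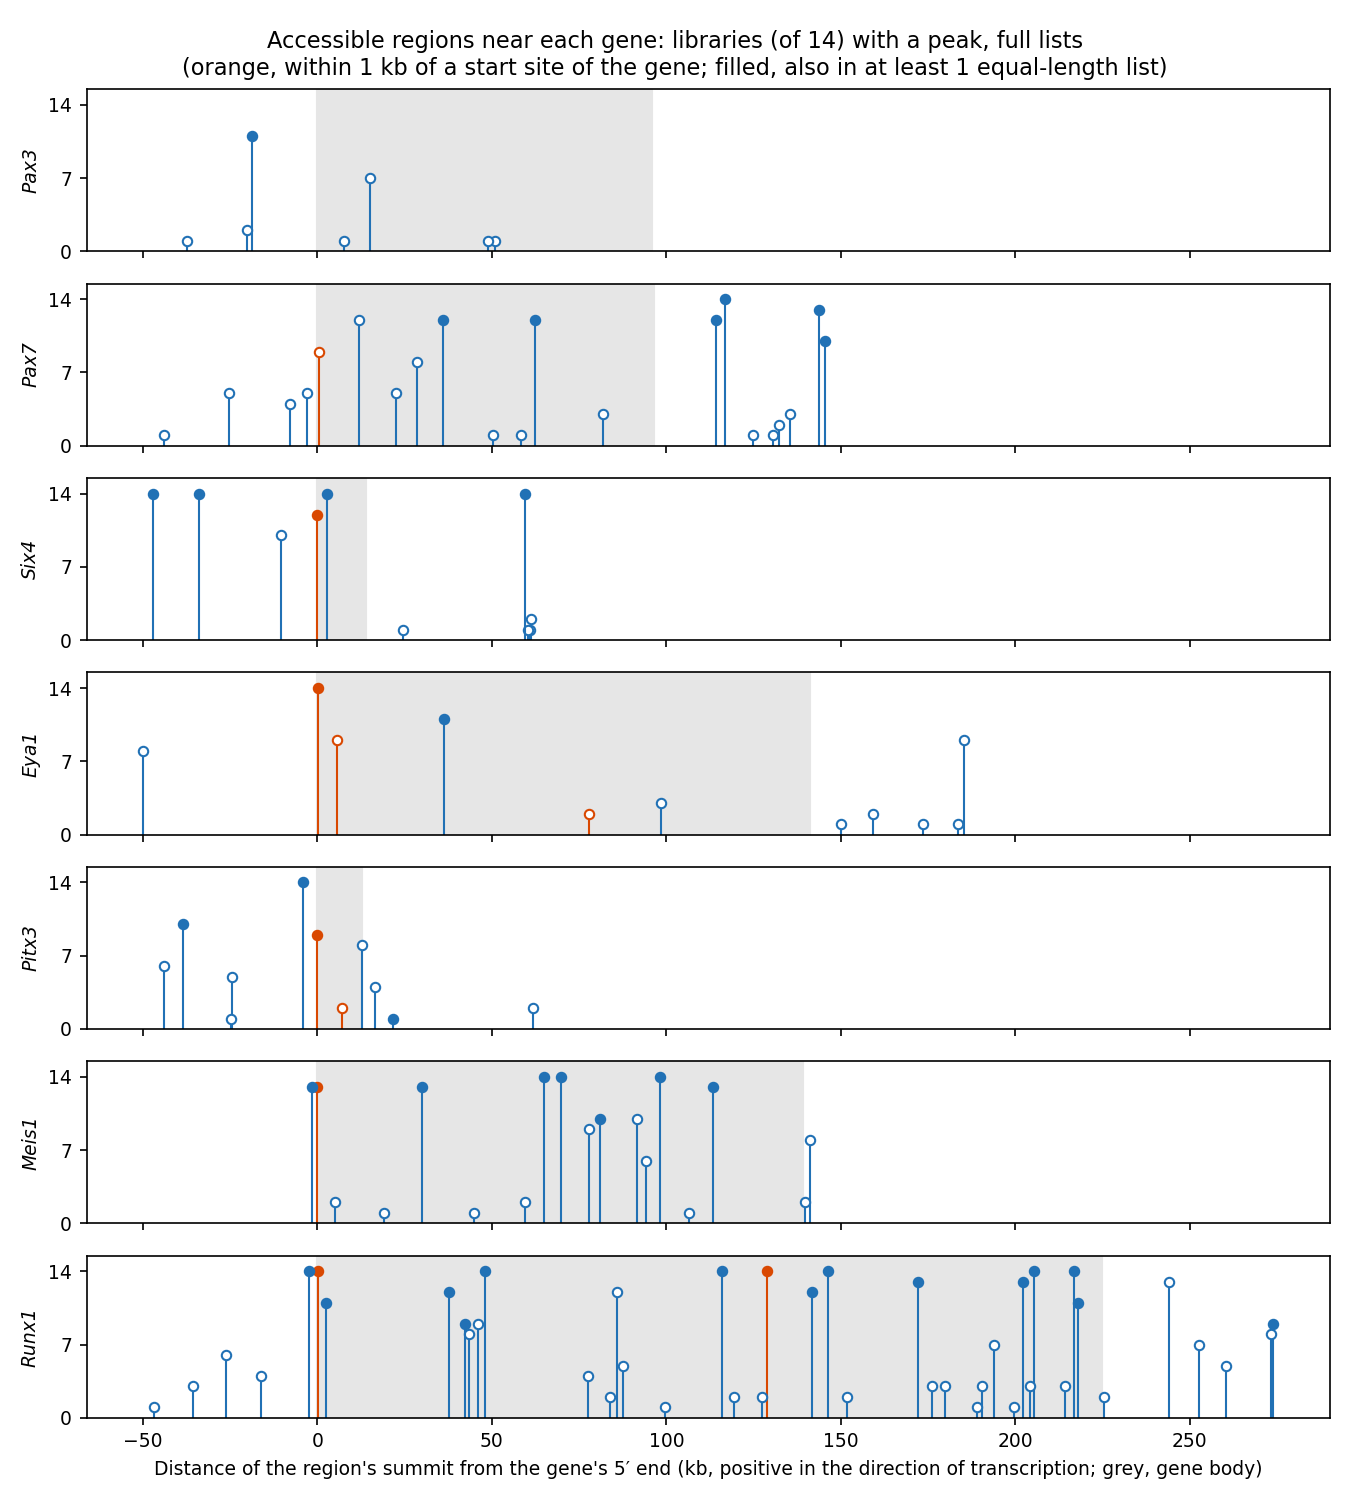
Each stem is 1 region, placed by the distance of its summit from the gene's 5′ end (kb, positive in the direction of transcription), and its height is the number of the 14 compared libraries with a peak there in the full lists. Orange marks regions within 1 kb of a start site of the gene, filled symbols those in at least 1 equal-length list and grey the gene body. Runx1 and Meis1 carry shared regions along their introns, 4 Six4 regions reach 14, and no Pax3 region reaches 14.

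Per length, with every list as deposited, the mean number of peaks in 100 kb of window was 7.30 for Runx1, 5.21 for Six4, 4.87 for Pax7, 4.48 for Meis1, 3.93 for Pitx3, 1.81 for Eya1 and 0.875 for Pax3. Runx1 stood at the 91.8 percentile of all protein-coding genes on this scale and Pax3 at the 25.6. With lists of equal length the order began with Six4 at 4.08 peaks in 100 kb (percentile 93.9), then Runx1 at 2.73 and Meis1 at 2.24, and ended with Pax3 at 0.0729. The Pax7 and Pitx3 values of 1.09 and 1.08 in these lists were close to each other, and the ranges of both counts over the 14 libraries overlapped, 1 to 5 peaks for Pax7 and 1 to 2 for Pitx3.

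The start sites separated the genes more sharply. Runx1, which is transcribed from 2 promoters, had a peak at both in all 14 libraries: Runx1 region 38 at the distal promoter, 72 bp inside a start site, and Runx1 region 23 at the proximal one, 128.7 kb from the gene's 5′ end. The proximal region was the stronger, with a median fold enrichment over the local background of 10.5 (range 7.12 to 12.8) against 7.28 (3.99 to 10.8). Once lists were equal in length the proximal region was kept in all 14 libraries and the distal one in 11.

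Eya1 region 10, 105 bp inside a start site, was also found in all 14 libraries, yet in 6 of the equal-length lists. The Meis1 start (Meis1 region 17, 28 bp upstream) had a peak in 13 libraries and in 12 equal-length lists, the missing library of the full lists being the shortest, GM no dox replicate 1. The Six4 start (Six4 region 7) had one in 12 and 9. The Pax7 start (Pax7 region 17, in a UTR) had a peak in 9 full lists and in no equal-length list, and where found its median rank in its own list was the 26.3 percentile. Pitx3 had a peak at a start site in 10 full lists and 1 equal-length list. Pax3 had none in any library, which in lists of called peaks says only that no peak passed the threshold of q under 0.05.

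**Figure D2:**
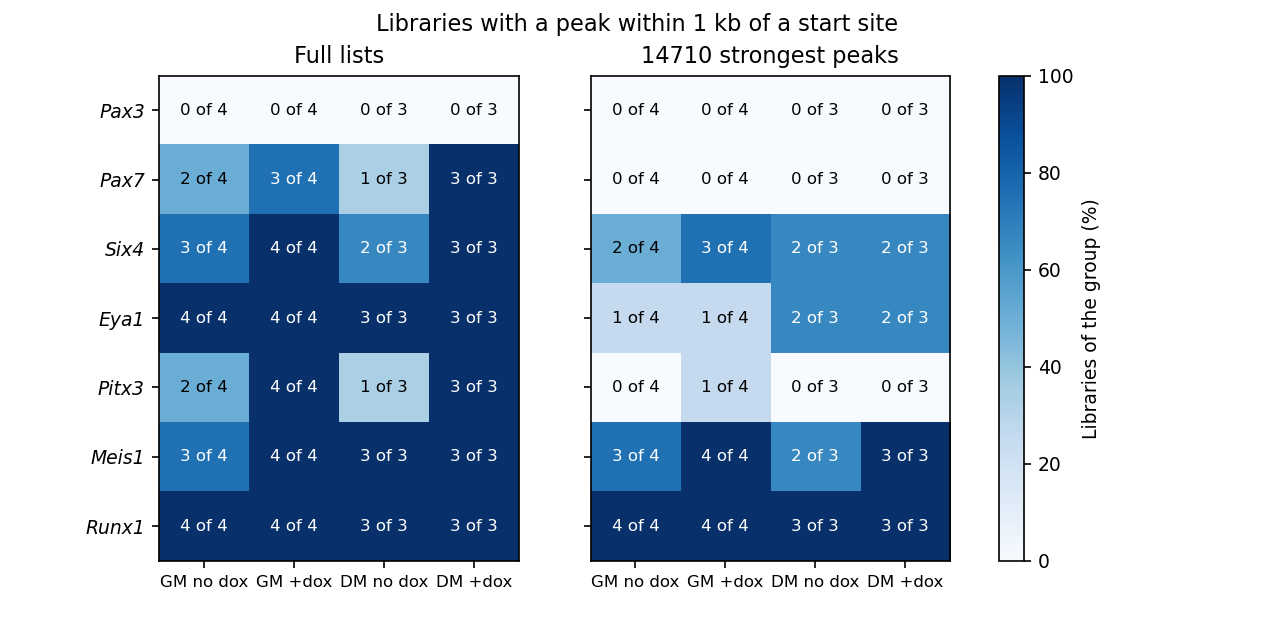
Each cell gives the number of libraries of a group with a peak within 1 kb of a start site of the gene, and the shade the same as a percentage, in the full lists (left) and in the equal-length lists (right). The Runx1 start is open in every library of both kinds of list, the Pax7 and Pitx3 starts appear mainly in the full lists, and Pax3 stays at 0.

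Away from the start sites, single regions dominated several windows. Near Pax7 the strongest was Pax7 region 7, between genes and 116.9 kb from the gene's 5′ end, beyond its 3′ end. Its fold enrichment was 6.78, 14.3, 9.40 and 17.5 in GM no dox and 17.0, 16.4, 17.5 and 15.8 in GM +dox. The DM controls gave 10.5, 15.6 and 15.8 and the DM +dox libraries 21.3, 18.0 and 20.1. The lowest value belonged to the shortest list, GM no dox replicate 1, and the region ranked between the 70.2 and 97.5 percentiles of the lists. The Pax7 start, by comparison, never rose above the 47.6 percentile.

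In the Six4 window, Six4 region 9 in an intron of Mnat1 ranked highest, with fold enrichment from 10.1 to 26.1 and a median rank at the 95.7 percentile. Six4 region 6 in a Six4 intron, 2.83 kb inside a start site, was also present in every full and equal-length list. Near Pitx3 the strongest region was not at Pitx3 at all: Pitx3 region 7 lies 139 bp from the Gbf1 start and ranked at the 99.8 percentile at the median. Pax3 region 5, 18788 bp upstream of Pax3, was the only Pax3 region to enter an equal-length list, in 2 of 14 libraries, and it had a peak in 11 full lists: 2 libraries of GM no dox, all 4 GM +dox libraries, 2 of the DM controls and all 3 DM +dox libraries.

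Motifs were counted within 100 bp of each summit, on both strands, in the equal-length lists. TGANTCA was found in 22 of 42 regions (52.4%), against 34.2% of all 26213 regions, and GGAATG, the TEAD core, in 28.6% against 16.7%. CAGCTG was found in 23.8% against 18.6%, any E-box (CANNTG, which includes CAGCTG) in 59.5% against 61.5%, TGTGGT (RUNX) in 23.8% against 23.5%, TGACAG (MEIS) in 9.52% against 14.7%, and the MEF2 core (CTA and TAG, 4 bases apart) in 0% against 2.22%. These shares are descriptions without a test. In the full lists TGANTCA was at 38.0% against 32.1%, GGAATG at 15.7% against 17.6% and CAGCTG at 20.7% against 19.8%.

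To ask whether elevated MyoD1 altered the chromatin of these genes in proliferating cells, GM +dox was compared with GM no dox. Pitx3 was the only one of the 7 whose counts did not overlap between the groups. Its window held 2, 4, 1 and 5 peaks without dox and 7, 6, 9 and 6 with dox (means 3 and 7), which is 4 more (exact permutation p = 0.0286, two-sided, the smallest that 4 against 4 allows, adjusted p = 0.594 over all genes). Of all genes tested, 1.44% were higher without overlap, and the count here is 1 gene of 7. At equal list length the Pitx3 counts were 2, 1, 1 and 1 without dox and 1, 1, 1 and 2 with dox, and in a 10-kb window the groups overlapped. Counted per 10000 peaks of the list, an alternative chosen after seeing the data, the Pitx3 groups overlapped as well.

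**Figure D3:**
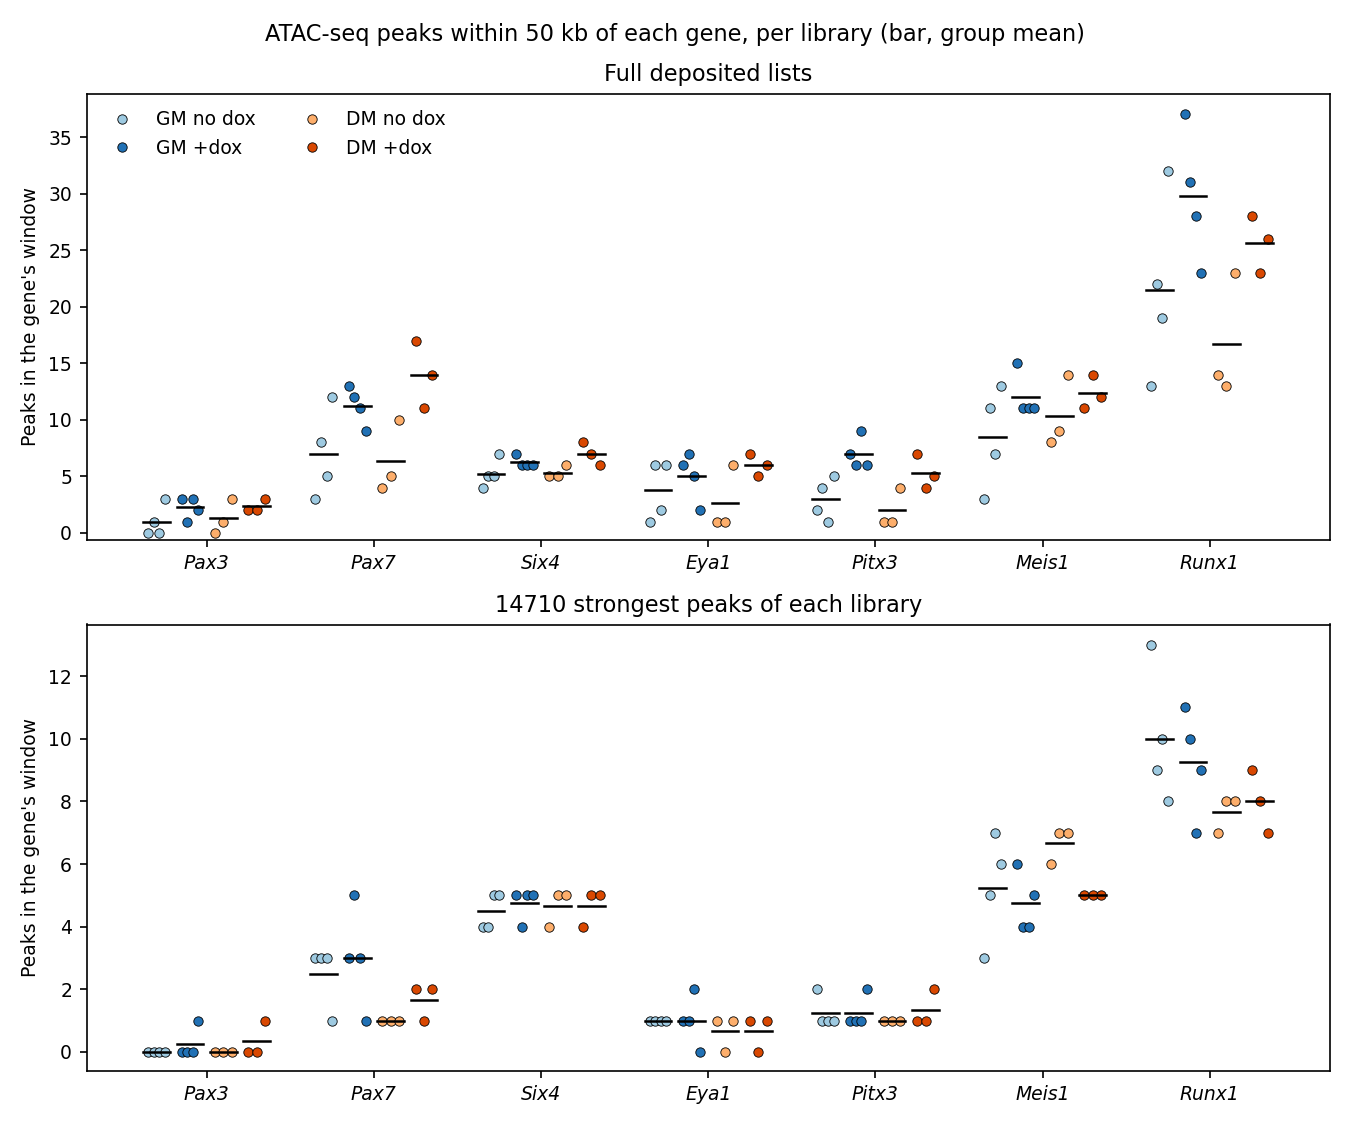
Each point is the number of peaks in a gene's window in 1 library, coloured by group, with a bar at the group mean, for the full lists (top) and the equal-length lists (bottom). In the full lists the +dox points of Pitx3 in GM (6 to 9) lie above the no dox points (1 to 5) and those of Pax7 in DM (11 to 17) above theirs (4 to 10), and in the equal-length lists neither gap remains.

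All counts of the full lists moved with list length: over the 14 libraries, which share their groups and their depth with it, Pearson's r between a gene's count and the number of peaks in the list ran from 0.809 for Pitx3 to 0.936 for Pax7. The 7 windows together held between 0.139% and 0.177% of the peaks of every kept list. The +dox lists were longer in DM (46241 to 51340 peaks against 23690 to 40599), and in GM the ranges overlapped (36531 to 58587 against no more than 49300). Fewer peaks, less depth and weaker enrichment cannot be told apart in these files.

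With dox in GM, 1 of the 104 regions with a peak in either group had a peak in all 4 +dox libraries and in no control library (0.962%), against 0.446% of all regions. This was Pitx3 region 4 (chr19:46135217-46135810), whose summit lies in a UTR of Elovl3 next to the 3′ end of Pitx3. Its summit pileup, recovered from the peak's fold enrichment and p, was 13, 16, 17 and 14 fragments in the GM +dox libraries, and it ranked between the 20.5 and 36.4 percentiles of their lists. It was also found in all 3 DM +dox libraries, with 21, 14 and 25 fragments, and in 1 DM no dox library. Without GM no dox replicate 4, the longest control list, 5 of 102 regions met the rule (4.90%) against 2.51% of all, and Pax7, Six4, Pitx3 and Runx1 all had counts above the remaining controls, as did 15.9% of all genes.

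In DM, Pax7 was the only gene of the 7 with counts that did not overlap in the full lists. Its window held 4, 5 and 10 peaks without dox and 17, 11 and 14 with dox (means 6.33 and 14), which is 7.67 more (exact permutation p = 0.1, two-sided), the smallest that 3 against 3 allows, and an adjusted p of 0.345. In this comparison 29.0% of all genes were higher without overlap, so 1 gene of 7 is no more than the series at large gave. Leaving out DM no dox replicate 4, the longest of the control lists, separated all 7 genes, as it did 68.5% of all genes, and leaving out DM +dox replicate 3 separated 3, as it did 39.2% of all genes. The Pax7 groups overlapped in a 10-kb window, per 10000 peaks of the list and with all 16 libraries. Paired by replicate number, Pax7, Pitx3 and Runx1 were higher with dox in all 3 pairs, as were 49.3% of all genes.

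At equal list length the only gene to separate in DM was Meis1, in the other direction. Its counts were 6, 7 and 7 without dox and 5, 5 and 5 with dox (means 6.67 and 5.00, exact permutation p = 0.1, adjusted p = 1), and 0.975% of all genes were lower without overlap. In the full lists the Meis1 counts were 8, 9 and 14 without dox and 11, 14 and 12 with dox, which overlap. With lists cut to 50% of that length the Meis1 groups overlapped. Counted per 10000 peaks of the full list, Meis1 was again lower with dox in DM without overlap, as were 18.4% of all genes.

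Among the regions with a peak in DM, 5 of 96 had a peak in all 3 +dox libraries and in no control (5.21%), against 5.37% of all regions, a share close to that of the series at large. None went the other way, which 0.0142% of all regions did. The 5 were Pax7 region 1, Pitx3 region 6 and Runx1 regions 9, 33 and 35. Without DM no dox replicate 4 they were 19 of 92 (20.7%, against 16.4% of all), and without DM +dox replicate 3 they were 10 of 92 (10.9% against 9.44%).

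Pitx3 region 6 (chr19:46148424-46148657) lies 235 bp upstream of the Pitx3 start and holds the 2 CAGCTG shown above. Its pileup was 48, 41 and 62 fragments with dox in DM, where no control had a peak. In GM it was found in all 4 +dox libraries (22, 41, 46 and 44 fragments) and in 2 of 4 controls (26 and 74 fragments). In GM the groups were therefore not separate, and the highest pileup, which is not scaled for depth, belonged to a control. By fold enrichment they overlapped too, at 3.78 and 6.06 in the controls and 3.32 to 6.30 with dox.

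Runx1 region 9 (chr16:92611694-92612101), in a Runx1 intron 214.2 kb from the 5′ end, was the only region of the 121 found in all 3 DM +dox libraries and in no library of any other group. Its pileup was 55, 22 and 30 fragments with a fold enrichment of 5.23, 3.53 and 3.87, and it ranked at the 45.9, 12.3 and 21.8 percentiles. It therefore lay in the weaker part of each list and entered none of the equal-length lists. The share of all regions of the series found in all DM +dox libraries and nowhere else was not computed. Runx1 region 33, also intronic with 1 CAGCTG, had 43, 20 and 29 fragments in DM +dox and was found in 2 GM no dox and 4 GM +dox libraries.

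Runx1 region 35 was present in 3 of 4 libraries of both GM groups and in all of DM +dox, with 29, 18 and 15 fragments there, and missing from DM no dox. In GM no dox its pileup was 23, 42 and 36 fragments where called, and it ranked as high as the 71.1 percentile. Pax7 region 1, far beyond the 3′ end of Pax7 and without CAGCTG near its summit, had 29, 18 and 18 fragments in DM +dox, 21 to 79 in GM +dox and 23 to 35 in 3 of 4 GM no dox libraries.

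**Figure D4:**
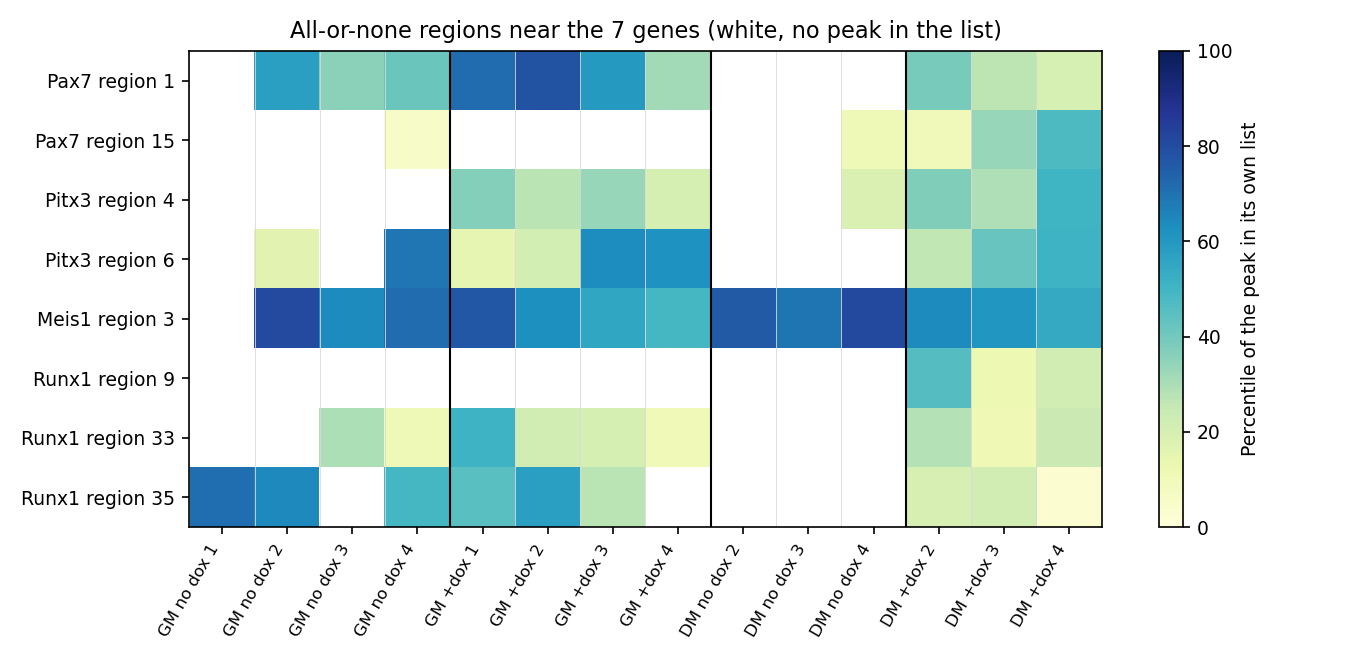
Rows are the regions present in whole groups and absent from another in at least 1 comparison, columns the 14 libraries in their 4 groups. Colour gives the percentile of the peak in its own list by −log10 p, and white means that the library has no peak there. Runx1 region 9 is coloured in the 3 DM +dox libraries alone, and Meis1 region 3, which met the rule in the equal-length lists, is present in 13 of 14 full lists.

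In the equal-length lists of DM, none of 31 regions was gained (0.824% of all were) and 1 was lost (3.23%, against 0.787% of all). The lost region, Meis1 region 3 in a Meis1 intron, was in the equal-length lists of all 3 controls and of no +dox library. It remained a called peak in all 3 +dox libraries in the full lists: its fold enrichment was 11.2, 10.5 and 15.8 without dox and 14.5, 11.8 and 10.7 with dox, and these overlap. Its percentile in the full list was 76.1, 69.4 and 80.9 without dox and 63.8, 60.9 and 54.1 with dox, on scales that differ because the +dox lists are longer.

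Differentiation was examined by comparing DM with GM at the same dox state. Without dox no gene of the 7 had counts that did not overlap, where 0.105% of all genes were higher and 0.0552% lower in this way. With dox there was none either, against 2.54% higher and 0.508% lower. Runx1 held 13, 22, 19 and 32 peaks in GM no dox and 14, 13 and 23 in DM no dox, a difference of −4.83 on the mean (exact permutation p = 0.543). Paired by replicate number, Runx1 was lower in DM in all 3 pairs without dox, as were 12.3% of all genes.

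No region was all-or-none in differentiation without dox, where 0.205% of all regions were gained and 0.205% lost. With dox 2 of 115 were gained (1.74%, against 1.49% of all) and none was lost (0.319% of all). The gained regions were Runx1 region 9 and Pax7 region 15, an intronic region with 1 CAGCTG near its summit. Pax7 region 15 had 9, 14 and 23 fragments in DM +dox, no peak in GM +dox, 11 fragments in 1 DM no dox library and 7 in 1 GM no dox library.

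A few regions differed between GM and DM in the full or in the equal-length lists without meeting the all-or-none rule. These were picked after their values had been seen, and how often such patterns occur over all regions is not given. Some regions entered more equal-length lists in DM. Eya1 region 10 entered those of 2 libraries in each DM group, against 1 in each GM group. Meis1 region 10 entered 3 against 2 without dox and 2 against 0 with dox, DM given first. The regions below went the other way. Runx1 region 41, upstream of the gene, was found in 3 of 4 libraries of each GM group and in no DM library, with a pileup between 8 and 32 fragments. Runx1 region 28, in an intron, was found in 2 GM no dox and 3 GM +dox libraries and in no DM library. Eya1 region 8, in a coding exon of Eya1, entered the equal-length lists of 3 of 4 libraries of each GM group and of no DM library, though 4 of the 6 DM libraries called it in the full lists, at 12 to 34 fragments. Pax7 region 2, beyond the 3′ end of Pax7, was in the equal-length lists of 2 GM no dox and 3 GM +dox libraries and of no DM library, and was called in all 6 DM libraries in the full lists.

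The 18 regions with a peak in all libraries were compared by their fold enrichment, on a log2 scale after quantile normalization, with limma and Benjamini-Hochberg adjustment over all 11046 such regions of the series. None of the 18 passed an adjusted p of 0.05 in any of the 4 comparisons. Of all regions, 0% passed in either dox comparison (0% in GM, 0% in DM), 0.263% in differentiation of vehicle cells and 0.0453% in differentiation of +dox cells. At an unadjusted p under 0.05, none of the 18 passed for dox in GM or DM and 2 passed in each differentiation comparison, while of all regions 398 higher and 276 lower passed for dox in GM and 388 higher and 353 lower for dox in DM. In differentiation, 511 higher and 702 lower of all regions passed without dox and 317 higher and 507 lower with dox. The 2 of the 18 were higher in each differentiation comparison. Whether their share differs from that of the series was not tested. With the replicate number as a block, limma called 0, 9, 130 and 39 of all regions in the 4 comparisons and again none of the 18.

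For dox, the differences of the 18 regions lay between −0.30 (Runx1 region 8) and 0.20 (Runx1 region 26) in GM and between −0.33 (Runx1 region 8) and 0.27 (Six4 region 10) in DM, all on the log2 scale. The adjusted p-values from limma ran from 0.799 to 0.992 in GM and from 0.747 to 0.999 in DM. The 95% intervals reached a median of 0.31 to either side in GM and 0.36 in DM. The proximal Runx1 promoter, Runx1 region 23, differed by −0.28 ± 0.16 (SE) in GM, with an interval from −0.62 to 0.05, and Pax7 region 7 differed by 0.14 ± 0.14 (SE), with an interval from −0.14 to 0.42.

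Meis1 region 10 had the lowest p of the 18. Its normalized log2 fold enrichment was 3.06, 2.43, 3.13 and 2.82 in GM no dox, 2.84, 2.68, 2.90 and 3.33 in GM +dox, 3.24, 3.59 and 3.51 in DM no dox and 3.12, 3.48 and 3.51 in DM +dox. All 3 DM no dox values lay above those of GM no dox, whereas the +dox groups overlapped. How often groups separate like this over all tested regions was not computed. The difference was 0.59 ± 0.20 (SE) without dox (limma, adjusted p = 0.240) and 0.43 ± 0.20 with dox (limma, adjusted p = 0.640), so neither passed.

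Runx1 region 21, an intronic region 15.7 kb inside a start site, gave 0.54 ± 0.21 without dox (limma, adjusted p = 0.317) and 0.46 ± 0.21 with dox (adjusted p = 0.625). With dox its DM values, 2.85, 2.91 and 2.80, lay above its GM values, 2.74, 2.51, 2.26 and 2.09. Both Meis1 region 10 and Runx1 region 21 are named because their p was lowest. For Runx1 region 21 too, the share of all tested regions that separate like this was not computed. The other 16 regions lay between −0.30 and 0.22 without dox and between −0.29 and 0.27 with dox. The difference between the effects of dox in DM and in GM was tested for the 18 regions as an interaction in limma, and the lowest unadjusted p was 0.279, with every adjusted p at 1.00 after rounding.

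**Figure D5:**
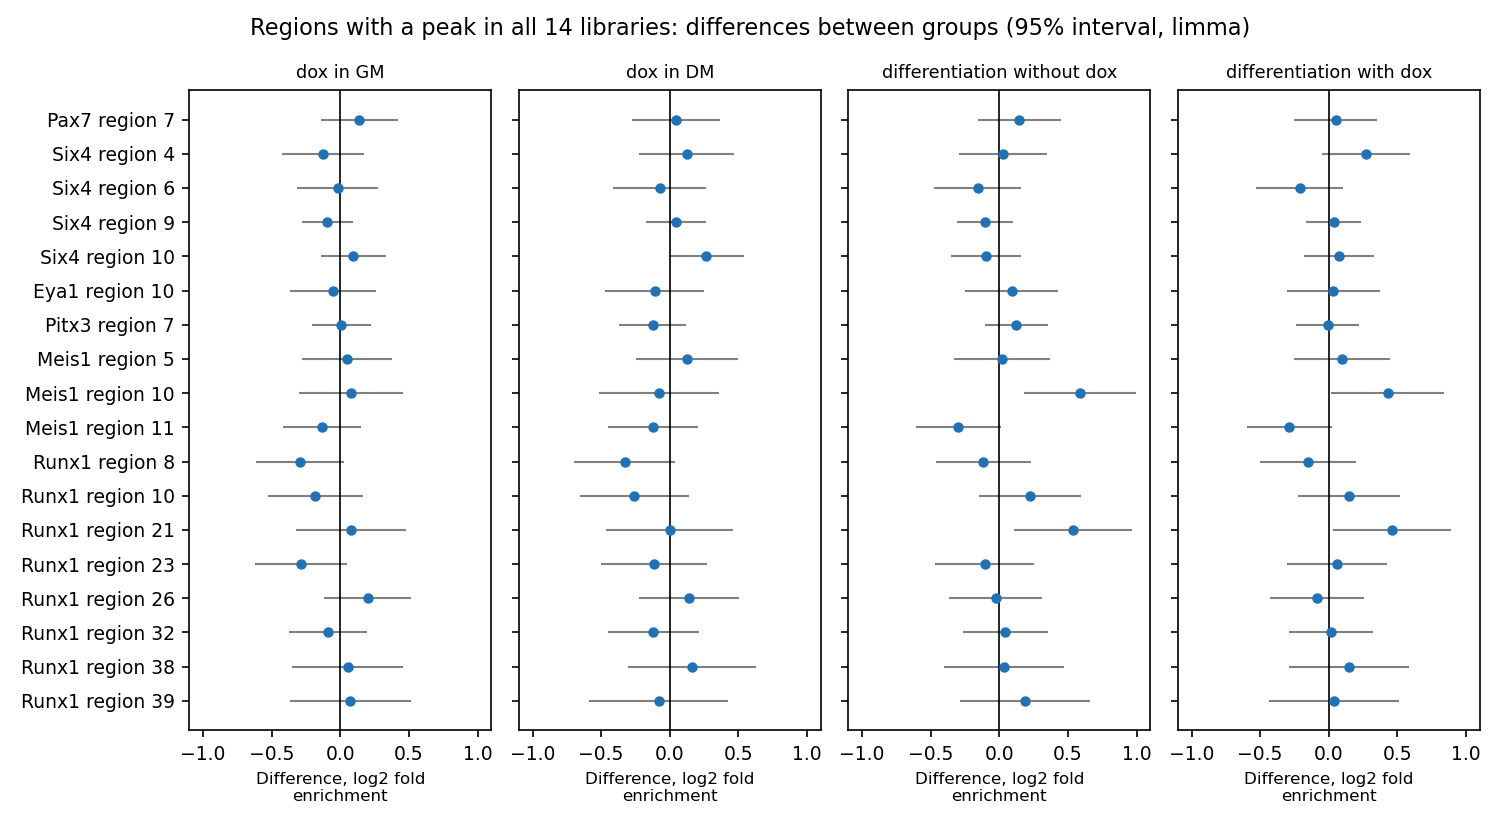
Points are differences in quantile-normalized log2 fold enrichment between the groups of each of the 4 comparisons, for the 18 regions with a peak in all 14 libraries, and lines are 95% intervals from limma. The intervals of Meis1 region 10 and Runx1 region 21 lie to the right of 0 in both differentiation panels, and in the dox panels every interval spans 0.

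Of 30 other genes, which are relatives and partners of the members and further progenitor factors, 9 had a peak at a start site in all 14 libraries, 5 in none and 16 in some. Runx3, a paralogue of Runx1, had one in all 14 full and all 14 equal-length lists, and Cbfb, the partner of Runx1, had one in 14 full and 12 equal-length lists. In the full lists 8 of the 30 were higher without overlap with dox in DM, against the 29.0% of all genes given above. None of the 30 passed an adjusted p of 0.05 in any comparison by the exact permutation test, as no gene of the series did. For dox in DM none could pass, as p cannot go below 0.1 there.

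The genes whose counts followed a member most closely over the 14 equal-length lists are given as a description. For Pax7 these were Zbp1 (Pearson's r = 0.884) and 4930447A16Rik (0.869), for Pitx3 Abhd6 (0.869) and Itpka (0.826), and for Eya1 the neighbours Amer1 and Asb12 (both 0.869). For Meis1 they were Dvl1 and Mxra8 (both 0.848) and for Runx1 Ifna11 and Ifna6 (both 0.907), each a pair of neighbouring genes. Six4 counts took the values 4 and 5 alone, and 6 genes had r = 1 with them, among them Haspin and Mrps25. Counts this small tie often.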

How the data were processed

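ATAC-seq was measured in 16 libraries of C2C12 iMyoD1 cells. The authors processed the reads with nf-core/atacseq against mm10, removed blacklisted intervals and ran MACS2 separately on every library to find narrow peaks, so nothing was pooled over replicates. Each deposited peak carries a ratio, its fold enrichment against the surrounding background, the −log10 p and −log10 q of its summit, and a display score of 10 times −log10 q, all given by the authors' peak caller. Read totals are not in these lists, so sequencing depth is unknown. The summit pileup, in fragments, was computed from the fold enrichment and p, and came out whole within 0.02 for at least 99.2% of peaks in every kept library.

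The members and gene lists were chosen with earlier results of these data known. Peaks overlapping a gene's window (gene body plus 50 kb each side, GENCODE M21) by at least 1 bp were counted per library, in the full lists and in lists cut, by −log10 p, to the number of peaks in the shortest one kept (GM no dox replicate 1). Groups were compared by a two-sided exact permutation test of the means for every protein-coding gene with a peak in either group, with Benjamini-Hochberg adjustment, and a gene was called where the groups did not overlap. Overlapping peaks of the 14 kept libraries were merged into regions, and a region was called where all libraries of one group and none of the other had a peak. Regions with a peak in every kept library were compared with limma 3.58.1 (R 4.3.3) on quantile-normalized log2 fold enrichment. All 14 libraries entered one fit with a mean-variance trend, and the 95% intervals are not adjusted.

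The text names the 7 genes, their regions within 1 kb of a start site, every all-or-none region, the region of highest mean rank of each gene, and regions said to have been chosen after their values were seen, which include Six4 regions 6 and 10. Some genes of the lists are not reported here. The labels number the replicates but do not say whether same-numbered libraries of different groups were made together. Deviations of same-numbered libraries from their group means correlated at 0.106 to 0.465 in every pair, over the regions in the limma fit. Libraries of different numbers were not compared in this way, so this does not settle whether the samples were paired. The main tests took no account of replicate number. The scripts were tested on simulated data. P-values measure the spread between these cultures, whose independence is as the labels give it. Pileups carry counting error, and intervals for it were not computed. Alternatives are given in the closing section.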

Additional observations from a re-analysis of the deposited data

Results flagged for a closer look

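Dixon's criterion was applied to 32 groups of 4 libraries. These were the window counts and the normalized fold enrichments of Meis1 region 10 and Runx1 region 21. In 7 of the groups, all of them window counts, 1 library stood apart from the other 3. Chance alone marks about 1 group in 20, and counts this small leave few possible gaps. In the full lists GM +dox replicate 1, the longest list, stood apart for Six4 with 7 peaks and for Meis1 with 15. In the equal-length lists GM +dox replicate 4 stood apart for Pax3 with 1 peak where the other 3 libraries had 0, and for Pitx3 with 2. GM no dox replicate 1 stood apart for Pitx3 with 2, GM no dox replicate 4 for Pax7 with 1, and GM +dox replicate 2 for Six4 with 4.

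The left-out DM +dox replicate 1 held more peaks than any kept DM no dox library in 3 windows of the equal-length lists: 4 at Pax7 against at most 1, 2 at Pitx3 against at most 1, and 9 at Runx1 against at most 8. Its list has 14236 peaks in all, so it entered whole. It was left out for quality and these values were not tested.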

How the results depend on the processing

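No call on a member reversed under any alternative run. No gene passed an adjusted p of 0.05 in the window counts by the exact permutation test, and limma called none of the members' regions, under any alternative run. Of 556 values of single genes and regions under the alternatives that left out no library, 52 moved.

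The counts of genes without overlap are given with the share of all genes called the same way. In the full lists, dox in DM (1 in the main counts, Pax7) gave 3 of 7 at −log10 q of at least 5 (27.4% of all genes), 0 with all 16 libraries (0.409%) and 3 with replicate numbers as a block (49.3%). Pax7 was not among the genes apart per 10000 peaks, where Meis1 was lower (18.4%), or in a 10-kb window, where Runx1 was higher (15.5%). Dox in GM (1, Pitx3) gave 0 in a 10-kb window (1.11%), 0 per 10000 peaks (2.18%) and 4 within replicate numbers 1 and 2 (48.0%). Differentiation without dox (0) gave 1 per 10000 peaks (Meis1 higher, 2.58%), 1 within numbers 1 and 2 (Pitx3 lower, 5.06%) and 1 with the block (Runx1 lower, 12.3%). Differentiation with dox (0) gave 1 at the stricter threshold (Pitx3 lower, 0.280%), 1 per 10000 peaks (Runx1 lower, 4.64%), 3 within numbers 1 and 2 (Pax7 and Six4 higher, 14.1%, Runx1 lower, 20.6%) and 2 within 3 and 4 (Meis1 higher, 24.6%, Pitx3 lower, 2.21%). In the equal-length lists dox in DM (1, Meis1 lower) gave 0 with lists cut to 50% of that length and 0 with all 16 libraries, dox in GM 1 within numbers 3 and 4 (Meis1 lower, 4.11%), differentiation without dox 1 in a 100-kb window (Runx1 lower, 1.72%) and 3 within numbers 1 and 2 (Meis1 higher, 15.5%, Pax7 and Runx1 lower, 12.5%), and differentiation with dox 2 within numbers 1 and 2 (Pax7 and Runx1 lower, 12.6%). Pairing by replicate number changed no other call on the members. With all 16 libraries, all-or-none regions of the full lists numbered 0 for dox in DM (0.297% of all regions were gained). For differentiation with dox they numbered 0 as well (0.0395% gained). At equal list length they were 0 for dox in DM with lists cut to 50% (0.737% gained) or all 16 libraries (0.368%). With lists cut to 50%, 1 was lost in differentiation without dox, where the share of all regions lost was not computed.

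Leaving out each library in turn, the genes without overlap in the full lists ranged from 1 to 4 for dox in GM (4 without GM no dox replicate 4, 15.9% of all genes), 1 to 7 for dox in DM (7 without DM no dox replicate 4, 68.5%, 3 and 2 without DM +dox replicates 3 and 4, 39.2% and 34.9%), 0 to 0 for differentiation without dox and 0 to 1 with dox (1 without DM +dox replicate 2, Pitx3 lower, 1.33%, or 3, Pax7 higher, 5.19%). At equal list length they ranged from 1 to 2 for dox in DM (2 without DM +dox replicate 3, Pax7 higher, 2.89%, Meis1 lower, 1.62%), 0 to 2 for differentiation without dox (2 lower without GM no dox replicate 4, 2.37%) and 0 to 1 with dox (1 lower without GM +dox replicate 4, 2.69%). All-or-none regions of the full lists ranged from 1 to 5 for dox in GM (5 gained without GM no dox replicate 4, 2.51% of all regions). For dox in DM they ranged from 5 to 19 (19 gained without DM no dox replicate 4, 16.4%, 10 without DM +dox replicate 3, 9.44%). For differentiation without dox they ranged from 0 to 2 (2 lost without GM no dox replicate 1). With dox they ranged from 2 to 4. Without GM +dox replicate 3 or 4, 2 were gained (1.74% and 1.69% of all regions) and 2 lost. At equal list length these regions ranged from 1 to 2 for dox in DM (2 lost without DM +dox replicate 2). For differentiation without dox they ranged from 0 to 1, the 1 being lost. With dox they ranged from 0 to 2 (2 lost without GM +dox replicate 4, 1 gained without DM +dox replicate 2, 2.56% of all regions). With a library left out, shares of all regions lost were not computed.

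Counted in whole regions, which are wider, the motif shares of the members' equal-length regions were 45.2% for CAGCTG (39.7% of all regions), 85.7% for CANNTG (91.2%), 66.7% for TGANTCA (45.2%), 54.8% for TGTGGT (43.5%), 31.0% for TGACAG (38.1%), 45.2% for GGAATG (35.4%) and 9.52% for the MEF2 pattern (7.67%). In the full lists, near summits, GGAATG was at 15.7% (17.6%), TGANTCA at 38.0% (32.1%) and CAGCTG at 20.7% (19.8%). The cause was not tested for any of these shifts.

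Peak lists hold called peaks alone, so a missing peak is not a measured 0. With 3 libraries against 3 the exact permutation test cannot go below 0.1, and window counts scale with list length.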
